A study of Mus musculus with 4 samples.

Results

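The D-type cyclins and the genes that set their activity in G1 were examined as a group of 9 genes: the cyclins Ccnd1, Ccnd2 and Ccnd3, their kinase partners Cdk4 and Cdk6, the inhibitors Cdkn1b and Cdkn1c, the retinoblastoma gene Rb1 and the transcription factor gene Mycn. They were picked by name from the 25239 gene IDs of the deposited tables, by their roles and from TPM levels in these same libraries that were already known, of which the lower level of Ccnd1 was the starting point. All 9 were listed on a single row in each library, and all 9 were among the 13984 genes at 1 TPM or more in at least 2 libraries that entered the comparison of groups. TPM is a level corrected for transcript length and scaled to a fixed sum per library. Because these levels chose the genes, their differences between groups are given as a description, with no p-value.

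RNA was sequenced from dissected mouse retina at E13.5 (E, embryonic day), in 2 libraries whose genotype is given as control and 2 given as Isl1cKO, which the series describes as Isl1-null. Isl1 encodes a LIM-homeodomain transcription factor of early retinal neurons. The Cre driver, the floxed allele, the strain, the genotype of the controls and the number of animals per library are not given in the sources used here. Nothing states that replicates came from separate animals, so any spread between them may be technical. Aligned sequence, derived from deposited coverage and FPKM, was 12.6 to 14.3 gigabases per library, and all 14 retinal progenitor markers examined were above the filter. Isl1 itself measured 242 and 201 TPM in control retina, against 321 and 223 TPM in the Isl1cKO-labelled retina, so its mRNA was not lower where the gene is said to be lost. The tables hold gene totals with no values per exon, in which a deleted exon would not be seen, so the genotypes could not be checked from Isl1 and every direction below depends on the labels. Other genes did separate by label. The hedgehog readout Gli1 stood at 96.6 and 65.4 TPM in control retina against 1.49 and 1.196 TPM in the Isl1cKO-labelled retina. Of the retinal ganglion cell markers given below, 11 of 13 tested were lower in both libraries, as were 30.0% of all tested genes. Pou4f2 and Isl1 itself, of the same list, overlapped between the groups.

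D-type cyclins are the regulatory subunits that mitogenic and developmental signals raise in G1. With CDK4 or CDK6 they phosphorylate the retinoblastoma protein, which releases E2F transcription factors and opens the way to S phase, while inhibitors of the CIP/KIP family hold the later cyclin and CDK complexes in check. Ccnd1 is the main D cyclin of retinal progenitor cells, and mice that lack it have small, thin retinas. Sonic hedgehog secreted by retinal ganglion cells acts on neighbouring progenitors, and Ccnd1, Ccnd2 and Mycn are known hedgehog-responsive genes in neural progenitors.

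Promoter windows were read for the members from RefSeq on GRCm38.p6, as the 250 bases before an annotated start, and windows were found for 5 members (Ccnd3, Cdk4, Cdk6, Cdkn1b and Mycn) and not for 4 (Ccnd1, Ccnd2, Cdkn1c and Rb1). The windows of Cdk4 and Cdk6 are shown because these kinases take the same cyclin partners and lay on opposite sides of control, and that of Mycn because its product is an E-box-binding factor and the window holds E2F strings. Each is printed 5′ to 3′ on the gene's strand, with the matched strings in capitals. They lie at chr10:127063285-127063534 on the plus strand for Cdk4, chr5:3343643-3343892 on the plus strand for Cdk6 and chr12:12941837-12942086 on the minus strand for Mycn.
Cdk4: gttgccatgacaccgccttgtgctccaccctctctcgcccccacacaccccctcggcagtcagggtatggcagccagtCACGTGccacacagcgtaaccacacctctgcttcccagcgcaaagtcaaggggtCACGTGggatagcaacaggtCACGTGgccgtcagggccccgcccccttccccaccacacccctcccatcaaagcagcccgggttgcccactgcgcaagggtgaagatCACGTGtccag
Cdk6: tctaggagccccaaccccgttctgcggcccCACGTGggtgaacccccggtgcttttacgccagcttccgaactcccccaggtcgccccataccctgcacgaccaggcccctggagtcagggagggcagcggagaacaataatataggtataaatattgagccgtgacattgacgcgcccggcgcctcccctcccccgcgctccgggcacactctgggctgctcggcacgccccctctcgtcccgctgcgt
Mycn: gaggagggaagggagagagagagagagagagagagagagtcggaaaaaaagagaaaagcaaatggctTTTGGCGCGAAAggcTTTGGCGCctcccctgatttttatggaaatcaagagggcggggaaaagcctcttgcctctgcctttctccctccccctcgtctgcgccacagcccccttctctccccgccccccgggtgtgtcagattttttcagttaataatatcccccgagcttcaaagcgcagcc

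The strings searched on both strands were the E-box CACGTG, which MYC-family factors bind, the E2F strings TTTCCCGC, TTTGGCGC and TTTCGCGC, the Gli strings GACCACCCA and GACCTCCCA, and the cyclic AMP response string TGACGTCA. Positions count back from the annotated start, the base before it being -1. The Cdk4 window held 4 E-boxes, beginning at -172, -118, -98 and -11. The Cdk6 window held a single E-box, from -220 to -215. At least 1 E-box stood in 6.02% of the 32851 windows of this length in the table, and 4 or more, a count looked up after the Cdk4 window had been seen, in 0.0213%. Mycn carried TTTGGCGC from -183 to -176 and again from -168 to -161, and TTTCGCGC on the opposite strand from -179 to -172, which overlaps the first of them. Any of the 3 E2F strings was found in 1.53% of windows, either Gli string in 0.478% and the cyclic AMP response string in 1.55%. The windows of Ccnd3 and Cdkn1b held none of the strings searched. A match describes these letters only and is no evidence of binding.

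In level, the 9 genes spanned a wide range. By control mean the order was Ccnd1 (1721 TPM), Cdk4 (912), Cdkn1c (189), Ccnd3 (148), Cdkn1b (133), Mycn (123), Ccnd2 (43.9), Rb1 (34.9) and Cdk6 (23.1), and of the neighbours in it only Cdkn1b and Mycn overlapped between libraries. By the mean of the Isl1cKO-labelled libraries Cdk4 (1004 TPM) came before Ccnd1 (904), followed by Cdkn1c (179), Ccnd3 (168), Cdkn1b (133), Mycn (117), Ccnd2 (55.2), Rb1 (29.0) and Cdk6 (11.9), with overlap only between Cdkn1c and Ccnd3. The ratio of Ccnd1 to Cdk4 TPM was thus 2.11 and 1.66 in the controls and 0.866 and 0.934 in the Isl1cKO-labelled libraries.

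Among the cyclins, Ccnd1 was the most abundant of all 9 genes in the controls and was lower in both Isl1cKO-labelled libraries. Ccnd1 (chromosome 7, 144929931 to 144939925, minus strand, mm10) measured 1944 TPM in control replicate 1 and 1498 TPM in control replicate 2, against 848 TPM in Isl1cKO replicate 1 and 961 TPM in Isl1cKO replicate 2. The lower control was still above the higher of the Isl1cKO-labelled libraries, so the groups did not overlap. Control retina averaged 1721 ± 316 TPM (SD, n = 2) and Isl1cKO-labelled retina 904 ± 79.8 TPM (SD, n = 2), which is 52.5% of control. The log2 fold change was -0.92 (SE 0.16), computed like every fold change here on the log2(TPM + 1) scale. The controls differed from each other by 1.30-fold, and the fold change was -0.73 without control replicate 1 and -1.11 without control replicate 2. By level, Ccnd1 went from rank 64 to rank 138 among the tested genes. In bulk tissue, fewer cells of a type and less RNA per cell cannot be told apart.

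Ccnd2, which many neural progenitors use in place of or beside Ccnd1, was a minor D cyclin of this tissue. Ccnd2 (chromosome 6, 127125709 to 127151048, minus strand) measured 46.0 and 41.7 TPM in control retina, against 43.7 TPM in Isl1cKO replicate 1 and 66.6 TPM in replicate 2. Replicate 1 lay between the controls and replicate 2 above them, so the groups overlapped. The log2 fold change of 0.30 (SE 0.22) was -0.004 with Isl1cKO replicate 2 left out and 0.595 with Isl1cKO replicate 1 left out, and thus rested on a single library.

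Ccnd3, the D cyclin best known from differentiating and blood cells, lay between the other cyclins in level. Ccnd3 (chromosome 17, 47505051 to 47599688, plus strand) measured 150 and 147 TPM in control retina, against 153 TPM in Isl1cKO replicate 1 and 184 TPM in replicate 2. Both of the latter were above both controls, replicate 1 by 3.19 TPM over the nearer one. Its log2 fold change was 0.18 (SE 0.12), and 0.05 without Isl1cKO replicate 2.

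**Figure D1:**
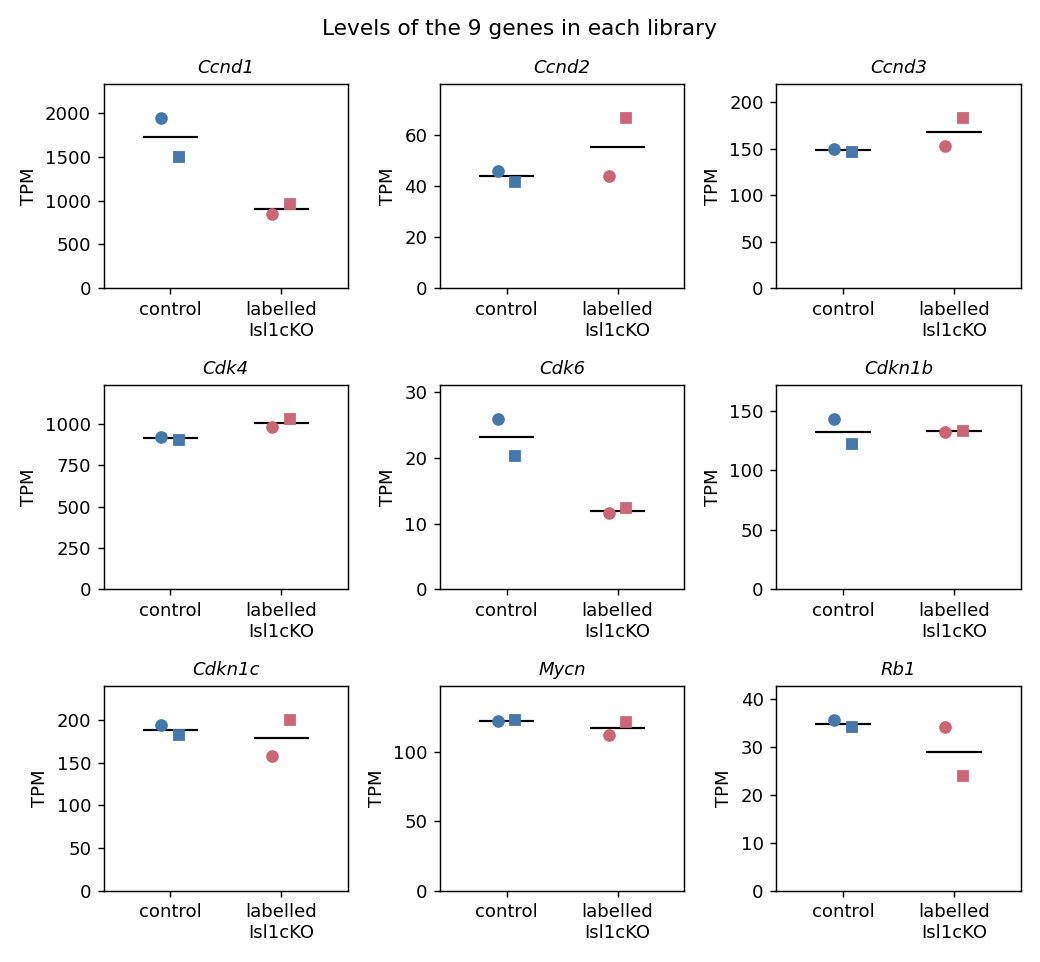
TPM (vertical axes, from 0) of the 9 genes in each library, with circles for replicate 1, squares for replicate 2 and a line at the group mean. Ccnd1 and Cdk6 are lower in both Isl1cKO-labelled libraries by more than the replicates differ, and the high Ccnd2 and Ccnd3 points are both Isl1cKO replicate 2.

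Whether the other D cyclins made up for the lower Ccnd1 was asked of their summed TPM. Ccnd2 and Ccnd3 together came to 196 and 188 TPM in the controls and to 197 and 250 TPM in Isl1cKO replicates 1 and 2. The mean of that sum was 31.3 TPM higher in Isl1cKO, while the difference in the mean of Ccnd1 was -817 TPM. The higher Ccnd2 and Ccnd3 thus matched 3.83% of the Ccnd1 difference, 0.526% with Isl1cKO replicate 1 alone and 7.63% with replicate 2 alone. All 3 D cyclins summed to 2140.3 and 1687 TPM in the controls and to 1045 and 1211 TPM in the Isl1cKO-labelled libraries, with no overlap. The mean sum in Isl1cKO was 58.9% of control, and between 52.7% and 66.9% with any single library left out.

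The makeup of the D cyclin pool differed accordingly. Ccnd1 supplied 90.8% and 88.8% of D cyclin TPM in the controls, and 81.2% and 79.3% in the Isl1cKO-labelled libraries. The share of Ccnd3 was 7.003% and 8.70% against 14.7% and 15.2%, and that of Ccnd2 was 2.15% and 2.47% against 4.18% and 5.50%. In Isl1cKO replicate 1 the levels of Ccnd2 and Ccnd3 were each within 3.19 TPM of a control, so that its shares follow arithmetically from the lower Ccnd1. In every library Ccnd1 stayed the most abundant D cyclin, and its ratio to Ccnd3 was 12.97 and 10.2 in the controls and 5.54 and 5.23 in the Isl1cKO-labelled libraries. Only mRNA was measured, and D cyclin protein levels were not.

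**Figure D2:**
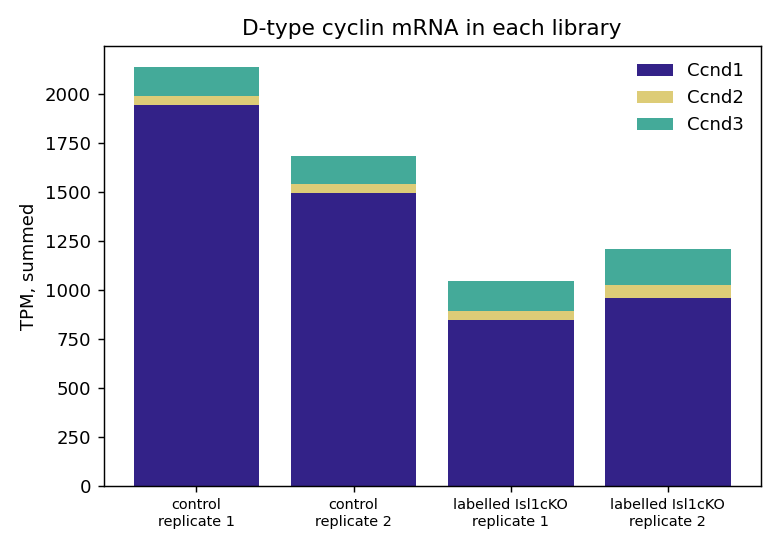
Stacked TPM of Ccnd1, Ccnd2 and Ccnd3 (vertical axis, from 0) in each of the 4 libraries. The stacks of the Isl1cKO-labelled libraries reach 1045 and 1211 TPM against 2140.3 and 1687 TPM in the controls, and the Ccnd2 and Ccnd3 layers together reach at most 250 TPM.

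The kinase partners lay on opposite sides of control. Cdk4 (chromosome 10, 127063535 to 127067288, plus strand), a catalytic partner of D cyclins and the more abundant of the pair here, measured 923 and 902 TPM in control retina, against 978 and 1029 TPM in the Isl1cKO-labelled retina. Both of the latter lay above both controls, with a log2 fold change of 0.14 (SE 0.08). Cdk6 (chromosome 5, 3343893 to 3531005, plus strand), the other D cyclin kinase, measured 25.9 and 20.3 TPM in control retina, against 11.5 and 12.3 TPM in the Isl1cKO-labelled retina. Its groups did not overlap, and its log2 fold change of -0.89 (SE 0.14) was close to that of Ccnd1. Without control replicate 1 it was -0.72, and -1.06 without control replicate 2.

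Cdk6 was so scarce that the kinase pool stayed nearly all Cdk4. The ratio of Cdk4 to Cdk6 TPM was 35.6 and 44.5 in the controls and 84.8 and 83.5 in the Isl1cKO-labelled libraries. Cdk4 and Cdk6 together came to 949 and 922 TPM in the controls, and to 990 and 1041 TPM in the Isl1cKO-labelled libraries. D cyclin TPM per TPM of these kinases was therefore 2.26 and 1.83 in the controls and 1.06 and 1.16 in the Isl1cKO-labelled libraries.

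The inhibitors were close to level between the groups. Cdkn1b (chromosome 6, 134920401 to 134925525, plus strand), a CIP/KIP inhibitor that holds postmitotic retinal cells out of the cycle, measured 143 and 122 TPM in control retina, against 132 and 133 TPM in the Isl1cKO-labelled retina. The latter lay between the controls, and the log2 fold change was 0.01 (SE 0.11). Cdkn1c (chromosome 7, 143458339 to 143461050, minus strand), an imprinted inhibitor of the same family that acts as retinal progenitors leave the cycle, stood at 195 and 183 TPM against 158 and 200.1 TPM. Isl1cKO replicate 1 was below both controls and replicate 2 above both, with a log2 fold change of -0.08 (SE 0.14). Its sign turned to 0.09 without Isl1cKO replicate 1. Cdkn1b turned to -0.11 without control replicate 2. With the inhibitors near level and Ccnd1 lower, D cyclin TPM per TPM of Cdkn1b plus Cdkn1c was 6.33 and 5.54 in the controls and 3.60 and 3.63 in the Isl1cKO-labelled libraries.

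Rb1 (chromosome 14, 73195502 to 73325822, minus strand), which encodes the pocket protein that D cyclin kinases phosphorylate, measured 35.6 and 34.2 TPM in control retina, against 34.1 and 24.0 TPM in the Isl1cKO-labelled retina. Both of the latter were lower, but replicate 1 only just. The log2 fold change of -0.28 (SE 0.18) was -0.03 with Isl1cKO replicate 2 left out and -0.52 with Isl1cKO replicate 1 left out. Mycn (chromosome 12, 12936093 to 12941836, minus strand), a driver of progenitor growth, measured 122 and 123 TPM in control retina, against 112 and 122 TPM in the Isl1cKO-labelled retina. Isl1cKO replicate 2 was within 0.58 TPM of a control, and the log2 fold change was -0.07 (SE 0.08).

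**Figure D3:**
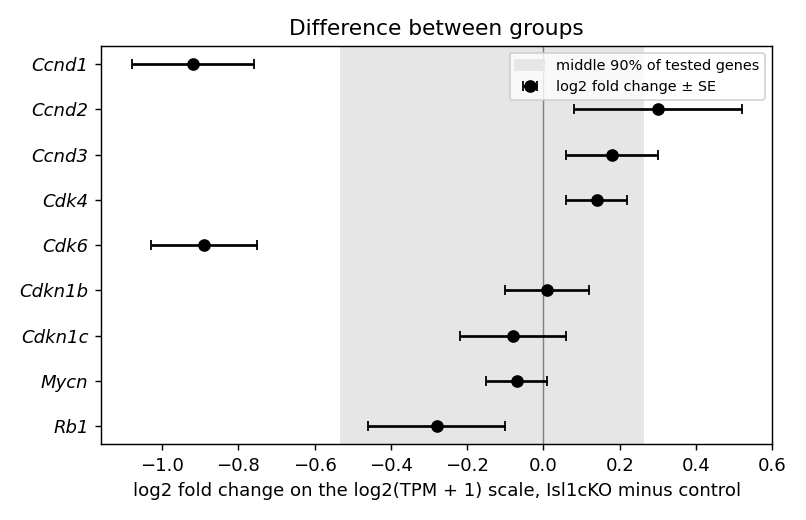
Log2 fold change on the log2(TPM + 1) scale, Isl1cKO minus control, of each of the 9 genes, with bars of 1 SE from limma and 2 libraries per group. The grey band holds the middle 90% of the tested genes, from -0.53 to 0.26, and Ccnd1 at -0.92, Cdk6 at -0.89 and Ccnd2 at 0.30 lie outside it.

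As a count, 0 of the 9 genes passed an adjusted p-value of 0.05 in limma across all genes, where 0.493% of tested genes did. At an unadjusted p-value of 0.05 there were 2 of the 9 (Ccnd1 and Cdk6), beside 12.1% of all tested genes. Both Isl1cKO libraries lay below both controls for 4 of the 9 (Ccnd1, Cdk6, Mycn and Rb1), as in 30.0% of tested genes. Both lay above for 2 (Ccnd3 and Cdk4), as in 14.9% of tested genes, and 3 overlapped. The median log2 fold change was -0.07 over the 9 genes and -0.05 over all tested genes. Nothing is read from these counts, since the genes were chosen with the levels known.

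The gene nearest to Ccnd1 in pattern was another of the 9. Since the 9 were chosen with their levels known, nothing is read from the rank of that gene. Likeness was the Euclidean distance between log2(TPM + 1) profiles over the 4 libraries, each centred on its own mean, among 9907 other genes with a mean of at least 10 TPM. Cdk6 came first, at a distance of 0.076, followed by Prkar1b at 0.110, Rbpms at 0.149, Sema4d at 0.150 and Akap7 at 0.211. Prkar1b and Akap7 encode a regulatory subunit and an anchoring protein of protein kinase A, Rbpms an RNA-binding protein that marks retinal ganglion cells and Sema4d a semaphorin. Their log2 fold changes were -0.84 for Prkar1b, -1.04 for Rbpms, -1.01 for Sema4d and -1.01 for Akap7. With 4 libraries such closeness is a description of a shared profile only, and 115 genes had a Pearson's r above 0.99 with Ccnd1.

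Around the 9 genes, other genes of the G1 and S-phase machinery were followed from lists by role, 60 genes in all, of which 58 could be tested. In limma 0 of these 58 passed an adjusted p-value of 0.05 in either direction, beside 0.493% of all tested genes, and 3 of the 58 had an unadjusted p-value under 0.05, beside 12.1%. Their median log2 fold change was -0.04, close to the -0.05 of all tested genes, and their range was -0.27 to 0.71.

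The cyclins that follow the D cyclins were near level. Ccne1, a cyclin of the G1 to S transition, measured 27.9 and 29.3 TPM in control retina, against 31.0 and 32.3 TPM in the Isl1cKO-labelled retina, with a log2 fold change of 0.14 (SE 0.08, limma adjusted p-value 0.585). Its paralog Ccne2 had a log2 fold change of -0.12 and the S-phase cyclin Ccna2 one of -0.08. Their partner Cdk2 and the activating phosphatase gene Cdc25a completed this list of 5, whose median was 0.00 and whose range was -0.12 to 0.14.

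Of the CDK inhibitors outside the 9, Cdkn2d was at -0.16, Cdkn1a at -0.11 and Cdkn2c at -0.10 in log2 fold change. Cdkn2a and Cdkn2b, whose products bind CDK4 and CDK6 directly, stayed under 1 TPM in every library and were not tested. Among 12 pocket proteins, E2F and DP factors the median was -0.04. The largest differences there were E2f8, a repressive E2F, at -0.27 (adjusted p-value 0.368 in limma), Rbl1, a paralog of Rb1, at -0.22 (0.529) and E2f2, an activating E2F, at -0.18 (0.491).

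E2F target genes of S phase stood at similar levels in the libraries on either side. The 16 genes had log2 fold changes between -0.13 and 0.05, with a median of -0.04, and their summed TPM was 3373 and 3334 in the controls and 3241 and 3304 in the Isl1cKO-labelled libraries. Mcm5, a subunit of the replicative helicase, was at -0.13 and Uhrf1 at -0.11. Pcna, named here after its values were seen, stood at 755 and 741 TPM against 760 and 698 TPM. A level that missed the threshold is not shown to be equal: in these 16 genes the standard errors were 0.08 to 0.11, against the log2 fold change of -0.92 of Ccnd1.

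In the Myc network, Myc measured 9.79 and 13.1 TPM in control retina, against 16.1 and 22.9 TPM in the Isl1cKO-labelled retina. Both of the latter were above both controls, but the log2 fold change of 0.71 (SE 0.22) did not pass in limma, with an adjusted p-value of 0.342. The Max partners Mxd1, at -0.27 (adjusted p-value 0.342), and Mxd3, at -0.24 (0.457), which oppose Myc, did not pass either. Mycn remained more abundant than Myc in every library. For the CDK-activating kinase, Mnat1 was at 0.09, Cdk7 at 0.04 and Ccnh at 0.04. Of 10 genes of cyclin D and Cdkn1b protein turnover, the largest differences were Fbxo4 at -0.25, Rnf123 at -0.16 and Fbxo31 at -0.16, all ubiquitin ligase components, with adjusted p-values of 0.468, 0.577 and 0.652 in limma.

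**Figure D4:**
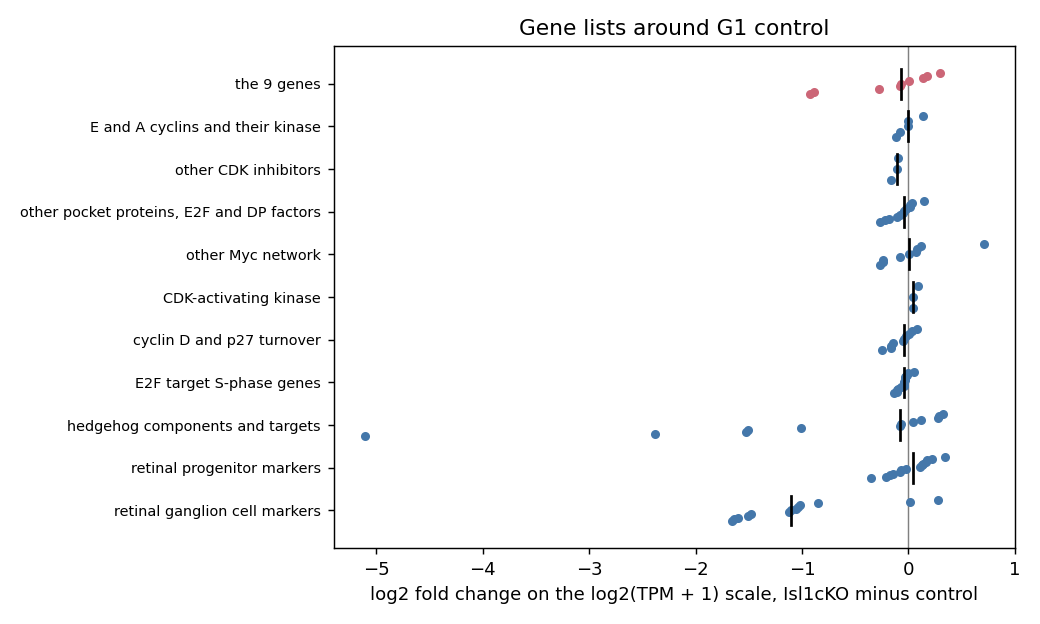
Log2 fold change on the log2(TPM + 1) scale, Isl1cKO minus control, of each tested gene (points) of the 9 genes and of the lists around them, with a line at each list's median. The 9 genes sit between -0.92 and 0.30, and the cell cycle lists around them between -0.27 and 0.71 (Myc). Hedgehog genes reach -5.11 (Gli1), and the retinal ganglion cell markers have a median of -1.10.

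Where the hedgehog pathway crosses these genes, its transcriptional readout Gli1 fell from a mean of 81.0 to one of 1.34 TPM (adjusted p-value 0.00744 in limma), the only one of 12 tested pathway genes to pass. Ptch1, the hedgehog receptor and a target gene, chosen after its values were seen, stood at 34.0 and 26.5 TPM against 15.0 and 13.8 TPM, a log2 fold change of -1.01 (adjusted p-value 0.113), and came at rank 8 in likeness to Ccnd1. Mycn and Ccnd2, named above as hedgehog-responsive, had log2 fold changes of -0.07 and 0.30.

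Markers of the cell types that a retina dissection can hold were read beside Ccnd1 and Cdk6, and of these lists only that of lens held genes past the adjusted threshold in limma. Retinal progenitor markers, from the cells in which Ccnd1 is chiefly expressed, summed to 6753 and 6773 TPM in the controls and to 6602 and 7274 TPM in the Isl1cKO-labelled libraries, and 0 of 14 passed. Of the 14, 4 were lower and 6 higher in both libraries, beside 30.0% and 14.9% of all tested genes. That sum holds opposite differences of abundant markers, Fgf15 (mean 1914 against 1497 TPM) and Sfrp2 (1682 against 2140 TPM). Retinal ganglion cell markers summed to 4044 and 3453 TPM against 2249 and 1550 TPM, with 11 of 13 tested genes lower in both libraries, as in 30.0% of all tested genes, a median log2 fold change of -1.10 and 0 past the adjusted threshold. Pou4f2 (126 and 124 TPM in the controls against 135 and 120 TPM) and Isl1 overlapped between the groups, and Thy1 of that list was under 1 TPM in every library. Lens markers summed to 215 and 263 TPM against 14.4 and 11.3 TPM. Of the 12, 8 passed as lower, beside 0.493% of all tested genes passing in either direction. Lim2 was listed at 0 in both Isl1cKO-labelled libraries. Red blood cell markers summed to 2894 and 4147 TPM against 1411 and 202 TPM, with 0 past the threshold. In both libraries 7 of 7 tested genes were lower, as in 30.0% of all tested genes. Hbb-bs was listed at 0 in Isl1cKO replicate 2. Microglia markers lay the other way, summing to 55.2 and 57.0 TPM against 69.6 and 82.6 TPM, with 5 of 8 genes higher in both libraries, as in 14.9% of all tested genes, and 0 past the threshold. Endothelial markers summed to 85.0 and 64.6 TPM against 63.1 and 59.6 TPM, and 0 of 2 tested genes passed. Most of that sum was Kdr, at 69.0 and 57.0 TPM against 56.7 and 55.5 TPM. The untested Pecam1, Cdh5, Tek, Emcn and Esam were all highest in control replicate 1, with Pecam1 at 2.45 TPM there and 0.592 TPM in control replicate 2. Pigment epithelium markers summed to 44.6 and 37.6 TPM against 36.4 and 26.99 TPM, with 0 of 6 passing and Rpe65 listed at 0 in every library. Periocular mesenchyme markers summed to 25.4 and 18.5 TPM against 17.5 and 13.9 TPM, with 0 of 3 tested genes passing. The part of these cell types in the levels of Ccnd1 and Cdk6, and in the Ccnd2 and Ccnd3 levels of Isl1cKO replicate 2, was not tested.

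Neighbouring genes limit some of the values. The span of Ccnd1 overlaps that of LTO1 on the opposite strand, at 60.7 and 63.1 TPM in the controls and 53.9 and 49.5 TPM in the Isl1cKO-labelled libraries, levels far below those of Ccnd1. Bysl overlaps Ccnd3 on the opposite strand, at 30.4 and 30.2 TPM against 26.6 and 26.9 TPM. Lpar6 overlaps Rb1 on the opposite strand, with 32.5 and 35.9 TPM in control retina against 38.5 and 37.6 TPM in the Isl1cKO-labelled retina, levels near or above those of Rb1, so that the Rb1 level would depend on how reads in the shared span were assigned. Library preparation kept strand, but whether reads were assigned by strand is not given in the sources used here.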

How the data were processed

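Poly(A)-selected, strand-specific RNA libraries of E13.5 retina (2 per group) were analysed from 1 deposited table each. Per the submitters' processing notes, the tools were Trimmomatic, FastQC, HISAT2, SAMtools, StringTie and DESeq2 and the build mm10, with roles and versions not given. Per the file headers the authors deposited coverage per base, FPKM and TPM. The deposited TPM summed to 1000000 per library, the deposited FPKM entered an alternative, and the deposited coverage signal served only to describe depth. Depth in reads is unknown, so no counting interval was computed, and no count test was run.

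TPM was summed over rows of a gene ID. Genes with at least 1 TPM in at least 2 libraries were fitted as log2(TPM + 1) with limma 3.58.1 in R 4.3.3, genotype being the only term, with Benjamini-Hochberg adjustment over all 13984 genes and a threshold of 0.05. The fit was tested on simulated data. The 9 genes, the lists and the naming rule (the 9 genes, Isl1, the 5 genes most like Ccnd1 and, in each list, genes past the threshold or else up to 3 with the largest difference) were chosen with earlier results of these data known. A gene that this rule names is not reported here. Alternatives were FPKM, median-ratio and quantile scaling, a pseudocount of 0.1, other filters, a variance trend, the highest row per gene, a replicate block and each library left out.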

Additional observations from a re-analysis of the deposited data

How the results depend on the processing

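For the 9 genes, Ccnd1, Ccnd3, Cdk4, Cdk6, Mycn and Rb1 kept their direction under each of 13 alternatives. The replicate block, the highest row per gene, the other filters and the variance trend cannot change these fold changes, so only the rest bear on direction. Under the alternatives that kept all libraries, 0 of the 9 passed the adjusted threshold in limma. Leaving out each library in turn gave log2 fold changes of -1.11 to -0.73 for Ccnd1, -0.004 to 0.595 for Ccnd2 and 0.045 to 0.306 for Ccnd3. At their smallest, Mycn stood at -0.011, Rb1 at -0.031 and Ccnd3 at 0.045, too near level to give weight to their direction. Ccnd2 and Ccnd3 were lowest without Isl1cKO replicate 2 and highest without Isl1cKO replicate 1. With FPKM, median-ratio scaling, quantile scaling and the pseudocount of 0.1, Ccnd1 stayed between -1.01 and -0.86. The summed D cyclin TPM, 58.9% of control, was 52.7% to 66.9% with a library left out. The 5 genes most like Ccnd1 by distance shared 0 genes with the 5 of highest Pearson correlation. Correlation ignores the size of the difference by construction, and its top 5 came from 115 genes with an r above 0.99. Why the 5 differed was not tested. None of the 58 pathway genes passed under any alternative, with 0 called throughout.

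The count of 69 called genes (4 higher, 65 lower) was 127 with FPKM, 44 at a pseudocount of 0.1, 110 with a variance trend and 15 when all 19784 genes with any TPM above 0 were tested. It was 10 without control replicate 1, 14 without control replicate 2, 37 without Isl1cKO replicate 1 and 18 without Isl1cKO replicate 2, where the lone library of a group is assumed to vary like the other group. Replicate numbers are shared by the groups, with deviations of same-numbered libraries correlating at 0.126 across genes, but no label says that they pair the samples. With the replicate block 265 genes passed, and still 0 of the 9. Except where stated, the cause was not tested. Without read counts, no detection limit could be given for genes listed at 0.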

Other observations

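Among the 122 tested genes with a control mean of at least 1000 TPM, a level chosen after the values were seen, the median log2 fold change was 0.14 and the range was -2.64 to 0.54. Only the globin gene Hba-a1, at -2.64, lay lower than Ccnd1, at -0.92. The set was taken by control mean alone, and Ccnd1 entered it only through the controls, its Isl1cKO mean being 904 TPM. Genes at that level in Isl1cKO alone were left out. Since Ccnd1 was also picked for its lower level, nothing is read from its place in this set. Over all tested genes, 240 had a log2 fold change as low as that of Ccnd1 or lower, Ccnd1 included, and 258 as low as that of Cdk6.

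Of the other progenitor genes, Fgf15, which like Ccnd1 is highly expressed in progenitors, measured 2012 and 1816 TPM in control retina, against 1521 and 1473 TPM in the Isl1cKO-labelled retina, with a log2 fold change of -0.35 (SE 0.09, limma adjusted p-value 0.285). Sfrp2, a secreted Wnt modulator of progenitors, stood at 1577 and 1786 TPM against 1928 and 2352 TPM, with a log2 fold change of 0.34 (SE 0.14, limma adjusted p-value 0.436). Neither passed the threshold, and both were picked after their values were seen.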
